A study of Mus musculus with 55 samples.

Results

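Biliary epithelial cells (BEC), which line the bile ducts, were compared with hepatocytes (HC), the parenchymal cells of the liver, in normal mouse liver. The 4 BEC and 4 HC libraries were chosen by their sample titles and make up 8 of the 55 libraries of the series, which profiled 10 sorted liver populations by RNA sequencing. All 8 came from livers labelled normal in C57B/L6 mice, and cells were sorted by FACS straight into TRIzol, per the labels. Beside them stand normal clonal biliary epithelial cells (cBEC, 4 libraries), normal non progenitor ducts (NPD, 2 libraries), and BEC (2 libraries) and HC (4 libraries) after partial hepatectomy (PH, surgical removal of part of the liver), all of the same strain. The labels give no sex or age, no surface marker used for sorting, no time after surgery, no pooling of animals, and no transgene, Cre or knockout. They do not say that replicates were separate animals, so the p-values measure the spread between these samples, which may be technical. In bulk RNA, a larger share of cells of a type and more RNA per cell cannot be told apart.

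Bile duct cells and hepatocytes arise from a common embryonic progenitor, the hepatoblast. Hepatocytes make plasma proteins, urea and bile acids and carry out gluconeogenesis and drug metabolism, under factors such as Hnf4a, Cebpa and the nuclear receptors. Biliary cells form a polarised tube on a basement membrane, bear a primary cilium, and modify bile with chloride, bicarbonate and water. They depend on Sox9 and Notch signals during development and are known for keratin 19 and osteopontin.

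The labels were first checked against 4 markers. Krt19, the ductal keratin (NM_001313963, chromosome 11, 100002126 to 100005013, minus strand, mm9), was at 382.7, 856.8, 246.5 and 319.4 FPKM in the 4 BEC libraries and at 0.30, 0.53, 1.12 and 2.60 in the 4 HC libraries. FPKM counts sequenced fragments relative to the length of the transcript and the size of the library, so levels of different genes can be set side by side. Library 2 of BEC was the highest, the groups did not overlap, and BEC exceeded HC by 7.67 on the log2 scale (SE 0.43, limma adjusted p 1.71e-07). Sox9, a ductal transcription factor (NM_011448, chromosome 11, 112643524 to 112649071, plus strand), was at 135.4, 108, 130.2 and 144.4 FPKM in BEC and 3.73, 3.27, 4.53 and 3.99 in HC. Its spread within each group was small beside the gap, and the log2 difference was 4.74 (SE 0.14, limma adjusted p 2.18e-09). Alb, serum albumin (NM_009654, chromosome 5, 90889896 to 90905628, plus strand), was at 67670, 67990, 71530 and 61970 FPKM in HC and listed at 0 in all 4 BEC libraries. Cps1, the entry enzyme of the urea cycle (NM_001080809, chromosome 1, 67169601 to 67277841, plus strand), was at 1033, 1709, 1535 and 1083 FPKM in HC and likewise listed at 0 in every BEC library. All 4 markers lay on the side that the labels name.

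**Figure D1:**
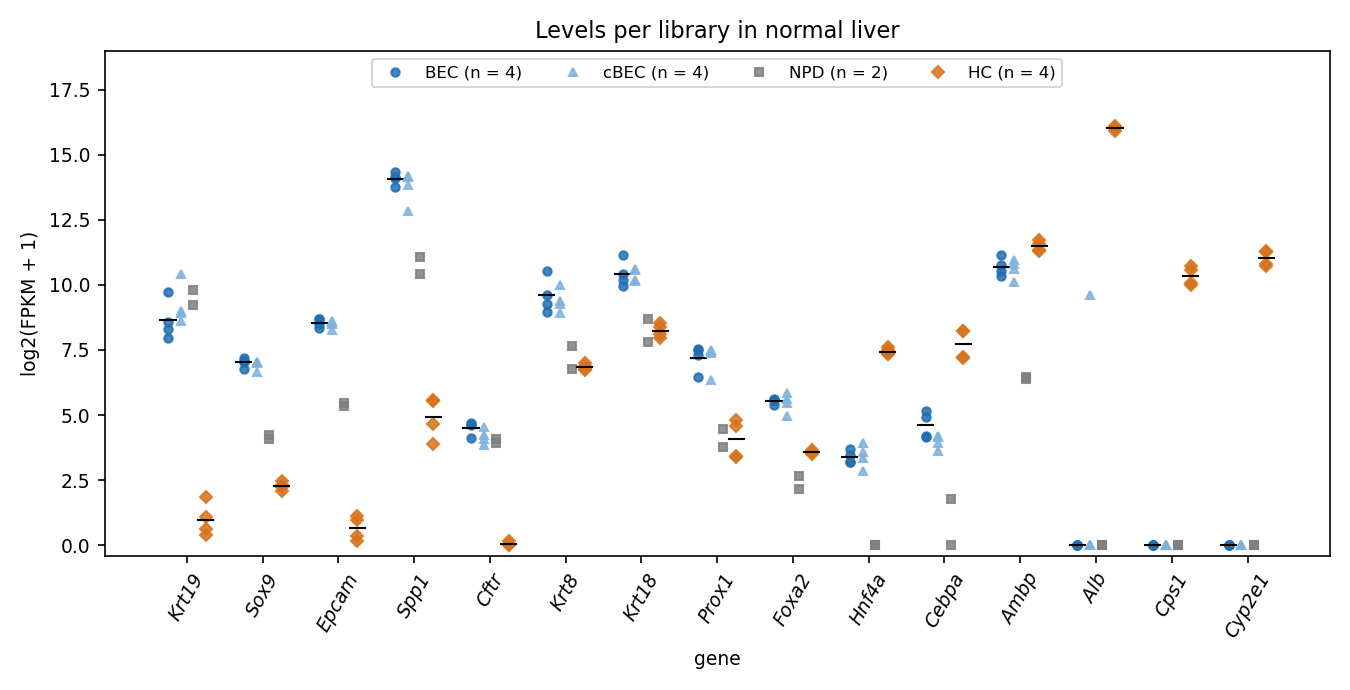
Levels of 15 genes in every normal BEC, cBEC, NPD and HC library, on the log2(FPKM + 1) scale; black bars are the means of BEC and HC. Krt19 is between 246.5 and 856.8 FPKM in BEC and at most 2.60 in HC, Foxa2 and Prox1 are higher in BEC, Hnf4a and Cebpa are above 0 in BEC but higher in HC, and Alb, Cps1 and Cyp2e1 lie at 0 in all 4 BEC libraries.

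Across the 12704 genes with at least 1 FPKM in at least 4 of the 8 libraries, 9108 (71.7%) were higher in BEC and 1806 (14.2%) were lower (10914 or 85.9% in either direction), at a limma adjusted p under 0.05 on log2(FPKM + 1). The whole distribution was shifted: the median gene was 1.35 higher in BEC on the log2 scale. The HC libraries were dominated by a few transcripts. Alb made up between 8.16% and 11.3% of their summed FPKM, and the top 10 genes between 26.3% and 28.7%, against 11.6% to 13.9% in BEC. From 9500 to 10171 symbols reached 1 FPKM in an HC library and from 12325 to 12682 in a BEC library. Summed FPKM were 633664 to 759786 in the HC libraries and 416592 to 510037 in the BEC libraries. The part of these features in the shift was not tested. The direction of many modest differences depended on the scaling. Of the called genes, 83.5% were higher in BEC on the FPKM as deposited, 68.9% after upper-quartile scaling (median gene 0.64, 6712 higher and 3029 lower) and 56.5% after quantile normalization (median gene 0.18, 4976 higher and 3824 lower). The same call on all 3 scalings, a rule chosen after the data were seen, was made for 4592 genes higher in BEC (36.1%) and 1757 lower (13.8%). Libraries stood apart on both sides. HC libraries 1 and 4 correlated at 0.991 and 2 and 3 at 0.994 (Pearson, log2 levels across genes), against 0.952 to 0.966 between these pairs, and BEC libraries 2 and 3 carried the most RNA of Kupffer and endothelial markers. Without HC libraries 1 and 4 there were 9344 genes higher in BEC and 1775 lower. The shares on all 3 scalings are the background for the counts of gene groups given below.

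**Figure D2:**
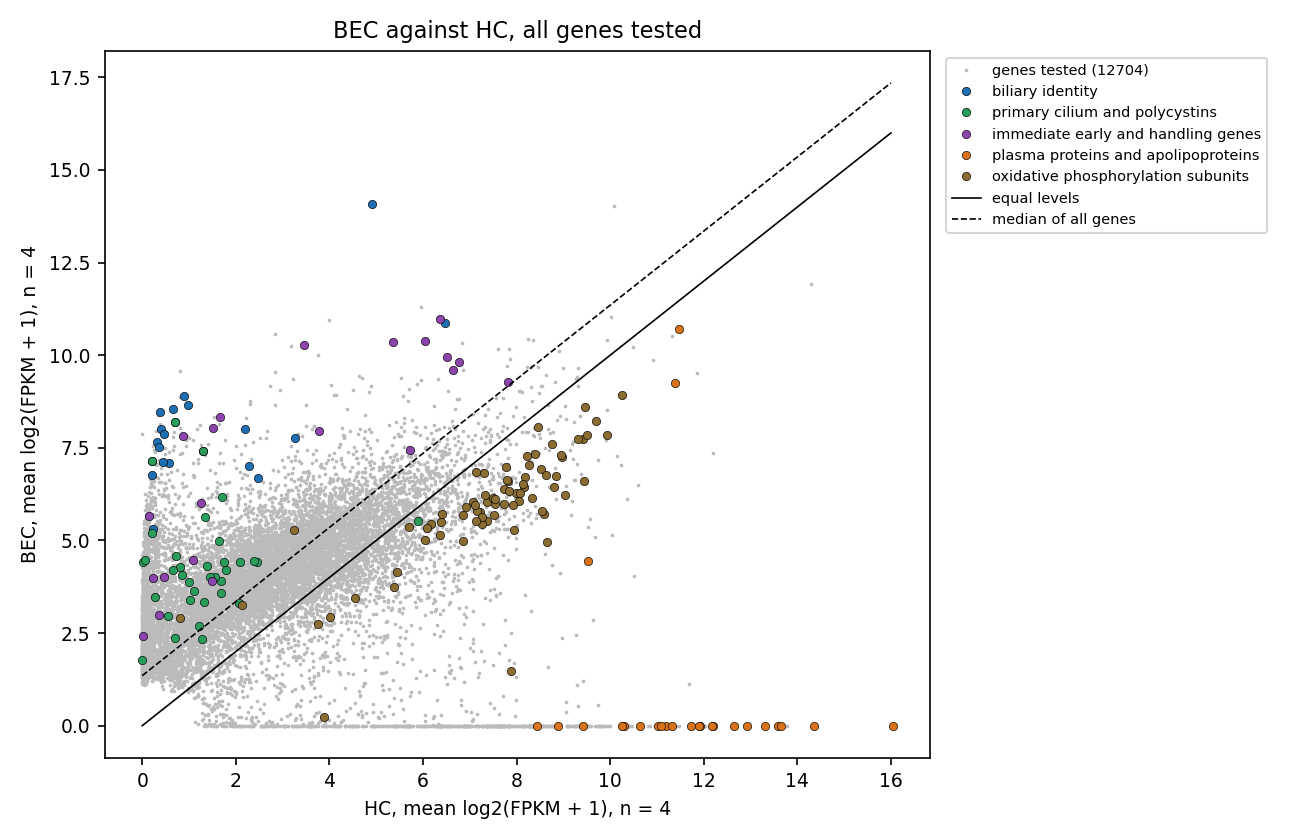
Mean log2(FPKM + 1) in 4 BEC libraries (vertical axis) against 4 HC libraries (horizontal axis) for each of the 12704 genes tested, with 5 gene lists coloured; the solid line marks equal levels and the dashed line the median of all genes, 1.35 higher in BEC. Biliary identity genes lie far above both lines, and 22 of the 25 plasma protein genes lie at 0 on the BEC axis.

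Zeros in BEC followed the hepatocyte level of a gene. Among genes at 1 to 10 FPKM in HC, 99 of 5416 (1.83%) were listed at exactly 0 in all 4 BEC libraries. The share was 8.13% (105 of 1292) at 30 to 100 FPKM, 25.1% (128 of 510) at 100 to 300, 49.3% (108 of 219) at 300 to 1000 and 75.6% (62 of 82) at 1000 FPKM or more. Of the 1806 genes lower in BEC, 543 were listed at 0 in all 4 BEC libraries, 205 in some of them and 1058 in none. A gene at 0 in all 4 BEC libraries was tested only if all 4 HC libraries reached 1 FPKM. All 543 such genes tested were called lower, so the filter fixed their direction in advance. The same holds for such members of the hepatocyte lists below. A listed zero next to a high hepatocyte level is therefore reported as listed, with no fold bound, and the fitted differences of such genes depend on the added 1 FPKM. The filter acted in the other direction as well. A gene under 1 FPKM in all 4 HC libraries was tested only if all 4 BEC libraries reached 1 FPKM. The direction of such members of the biliary and other cell type lists below was thus fixed in advance too.

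**Figure D3:**
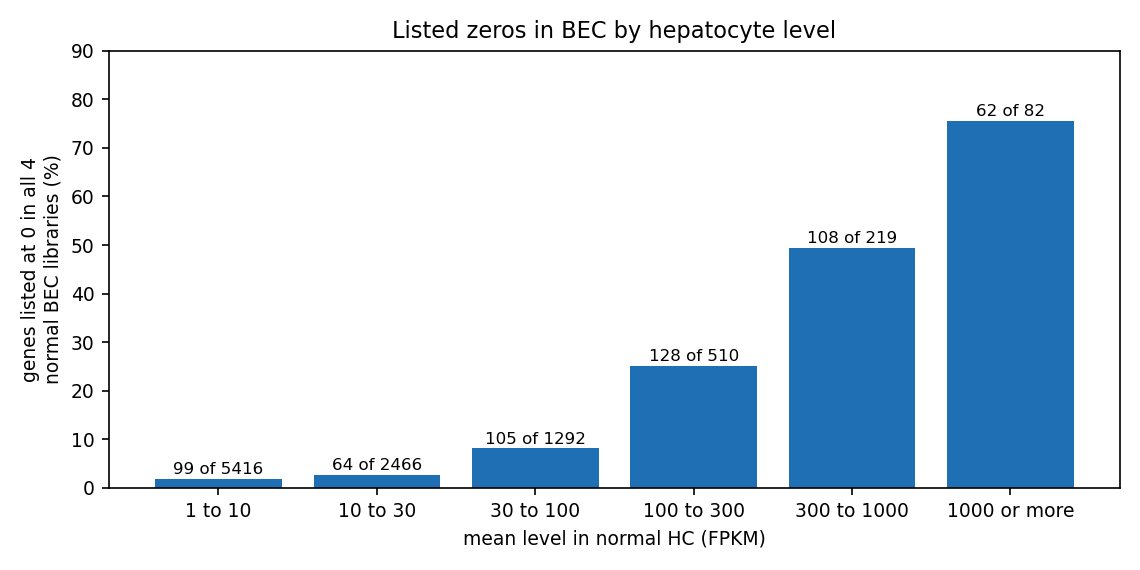
Share of genes listed at 0 in all 4 normal BEC libraries (vertical axis, %), by mean level in normal HC (horizontal axis, FPKM); labels give the counts. The share is 1.83% at 1 to 10 FPKM and 75.6% at 1000 FPKM or more.

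The biliary side was led by genes of ductal identity. All 21 tested of 22 identity genes were higher in BEC, on all 3 scalings, with a median log2 difference of 6.92 (6.69 after quantile normalization) against 1.35 for all genes. The filter fixed the direction of members under 1 FPKM in every HC library, among them Cldn7, Muc1, Prom1 and Anxa13. For such members the count is not a test, and the same limit holds for the biliary lists that follow. Spp1, the secreted phosphoprotein osteopontin (NM_009263, chromosome 5, 104864130 to 104870072, plus strand), was at 17570, 18340, 13820 and 20520 FPKM in BEC and at 13.62, 24.14, 47.22 and 45.84 in HC. Its log2 difference of 9.17 (SE 0.38, limma adjusted p 2.17e-08) was the largest in favour of BEC. Epcam, an epithelial adhesion molecule (NM_008532, chromosome 17, 88035319 to 88050467, plus strand), was at 409.5, 365.1, 320.9 and 412 FPKM in BEC and at most 1.19 in HC, higher by 7.89 (log2; SE 0.23, limma adjusted p 1.92e-09). The BEC libraries were tight for this gene. The surface proteins Cd24a, Prom1 and Muc1, a mucin, differed by 8.01, 7.35 and 7.17. Pkhd1, which encodes the ciliary protein fibrocystin, was at 205.7, 127.7, 185.6 and 164.9 FPKM in BEC and 0.92 to 2.09 in HC. Tm4sf4, a tetraspanin-like membrane protein, was already at 68.53 to 97.34 FPKM in HC and reached 1641 to 2246 FPKM in BEC, higher by 4.40 (log2; SE 0.19, limma adjusted p 2.57e-08).

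Among all genes without library overlap, the 12 largest differences in favour of BEC were Spp1, Scara3, Anxa13, Ankrd1, Kcne3, Cd24a, Epcam, Pamr1, Tmsb4x, Krt19, Lamc3 and Cldn7. Scara3, a class A scavenger receptor family member, was at 874.1, 714.3, 713 and 766.4 FPKM in BEC and at most 2.14 in HC (log2 difference 8.77, SE 0.28, limma adjusted p 3.37e-09). Kcne3, a regulatory subunit of potassium channels, was at 341.9, 433.1, 248.5 and 326.4 FPKM in BEC against at most 0.64 in HC (log2 difference 8.05). Tmsb4x, an actin-sequestering peptide, was the most abundant of these after Spp1 at 1549 ± 284 FPKM (SD, n = 4), with 1.74 to 24.04 FPKM in HC. Differences of 4 or more in favour of BEC were seen in 680 genes (5.35%) and of 4 or more in favour of HC in 558 (4.39%), of which 442 were listed at 0 in all BEC libraries.

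Secretory and transport genes of the duct were next. Of 15 tested members (20 in the list), 13 were higher in BEC and 1 was lower, with 12 higher on all 3 scalings and a median log2 difference of 4.37. Cftr, the cyclic AMP-regulated chloride channel of bile secretion (NM_021050, chromosome 6, 18120687 to 18272769, plus strand), was at 16.14, 23.26, 25.11 and 24.39 FPKM in BEC and at most 0.12 in HC (log2 difference 4.47, SE 0.16, limma adjusted p 6.39e-09). Sctr, the secretin receptor, was at 21.75, 15.04, 25.92 and 19.85 FPKM in BEC and at most 0.09 in HC. The calcium-activated channels Ano1 (88.1 ± 20.5 FPKM) and Kcnn4 (46.5 ± 7.53 FPKM), the inositol trisphosphate receptor Itpr3 (26.2 ± 1.99 FPKM) and the sodium-glucose transporter Slc5a1 (212.5 ± 38.5 FPKM, SD, n = 4 each) were all under 0.5 FPKM in every HC library. Slc4a2, a chloride-bicarbonate exchanger, differed less, at 49.63 to 66.81 FPKM in BEC and 10.55 to 15.26 in HC (log2 difference 2.08, SE 0.16, limma adjusted p 1.33e-06).

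Bile acid carriers of the duct did not follow this pattern. Slc10a2, the apical sodium-dependent bile acid transporter, was at 1.89, 4.57, 6.32 and 4.92 FPKM in BEC and 3.48, 9.69, 7.58 and 2.15 in HC, and did not pass (log2 difference -0.22, SE 0.42, limma adjusted p 0.631). After quantile normalization it was lower (-1.72, limma adjusted p 0.00086). Slc51b, a subunit of a basolateral bile acid exporter, was listed at 0 in 3 BEC libraries and at 0.384 FPKM in the other, against 4.48 to 7.33 FPKM in HC. Abcc3, an export pump, was higher in BEC by 0.62 (SE 0.18, limma adjusted p 0.00849), which is below the shift of all genes and turned to -0.25 after upper-quartile scaling.

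Junction genes exchanged members between the populations. Of 24 tested, 19 were higher in BEC (16 on all 3 scalings) and 4 were lower on all 3. The 4 lower genes were Gjb1, Gjb2, Cldn1 and Cldn14. Gjb1, the gap junction protein connexin 32 (NM_001302496, chromosome X, 98571715 to 98580968, plus strand), was at 813, 560.9, 580.3 and 804.8 FPKM in HC. In BEC it was listed at 0 in libraries 1, 3 and 4 and was at 27.37 in library 2. Gja1, connexin 43, was at 91.23, 69.46, 50.63 and 67.86 FPKM in BEC and at most 0.56 in HC (log2 difference 5.86, SE 0.21, limma adjusted p 8.11e-09). The tight junction claudins Cldn6, Cldn8, Cldn4 and Cldn7 differed by 7.21, 6.01, 6.67 and 7.61 in favour of BEC, while Cldn1 was at 30.18 to 78.37 FPKM in HC and listed at 0 in all BEC libraries. Cldn14 was at 11.89 to 17.5 FPKM in HC and at most 0.312 in BEC. Cdh1, E-cadherin, was at 674.1 ± 102.9 FPKM in BEC and 45.6 ± 8.41 in HC (SD, n = 4 each), whereas Cdh2, N-cadherin, did not pass (log2 difference -0.51, SE 0.36, limma adjusted p 0.216) but was lower after quantile normalization (-1.86, limma adjusted p 0.000384) and upper-quartile scaling (-1.28, limma adjusted p 0.0108).

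All 17 tested keratin, desmosome and hemidesmosome genes were higher in BEC, 16 of them on all 3 scalings, with a median log2 difference of 4.21. Krt8 and Krt18, the keratin pair of simple epithelia, were present on both sides. Krt8 was at 772.1, 1494, 496.2 and 620.4 FPKM in BEC and 117.5, 105.2, 108.8 and 126.6 in HC (log2 difference 2.75, SE 0.32, limma adjusted p 2.8e-05). Krt18 was at 1387, 2279, 989.7 and 1170 FPKM in BEC and 248.6 to 368.4 in HC. BEC library 2 was the highest for both, as for Krt19, Krt7 and Krt23. The desmosomal Dsp and Dsg2 differed by 3.91 and 4.27, and the hemidesmosomal integrins Itgb4 and Itga6 by 5.32 and 4.54. Itgb4 lay between 40.27 and 44.44 FPKM in the 4 BEC libraries and at most at 0.16 in HC.

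Basement membrane genes and their integrins followed. Of 28 tested, 26 were higher in BEC (22 on all 3 scalings) and 2 were lower, with a median log2 difference of 3.65. The laminin chains Lamb2 and Lama5 differed by 6.70 and 5.68, and each was under 1 FPKM in every HC library. Lamc3, a laminin chain outside the list, differed by 7.66. The heparan sulfate proteoglycans Hspg2 (perlecan) and Agrn (agrin) differed by 6.28 and 5.29, the collagen IV chain Col4a1 by 4.74 and the integrins Itga3 and Itgb8 by 5.45 and 4.77. The 2 lower genes were Col18a1, which encodes the precursor of endostatin, at 188.8, 233.4, 254.3 and 236.7 FPKM in HC and 88.32, 77.89, 64.31 and 69.36 in BEC, and Nid2, a nidogen, at 1.8 to 3.06 FPKM in HC and 0.122 to 1.12 in BEC. Col18a1 differed by -1.60 (SE 0.17, limma adjusted p 1.46e-05) and Nid2 by -1.23 (SE 0.22, limma adjusted p 0.000491).

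Of 35 tested genes of the primary cilium and polycystins, 34 were higher in BEC and 28 on all 3 scalings. The median log2 difference was 2.59, and 1.09 after quantile normalization against 0.18 for all genes. Dcdc2a, a doublecortin-domain protein of the axoneme, was at 140.9, 98.88, 170.7 and 161.3 FPKM in BEC and at most 0.35 in HC (log2 difference 6.92, SE 0.19, limma adjusted p 1.49e-09). Pkd2, the polycystin channel, was at 75.4, 52.14, 88.51 and 75.03 FPKM in BEC and 1.33 to 3.63 in HC. Its partner Pkd1 was lower on both sides, at 10.07 to 16.23 FPKM in BEC and 2.12 to 2.29 in HC (log2 difference 2.23). Cystin (Cys1) and the transport component Ift57 differed by 4.30 and 5.0, and Ift88 by 2.47. Ift20, an intraflagellar transport protein also found at the Golgi, was the exception at -0.37 (SE 0.14, limma adjusted p 0.0365), and lost the call when any 1 of 6 libraries was left out (limma adjusted p 0.0603 to 0.105).

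**Figure D4:**
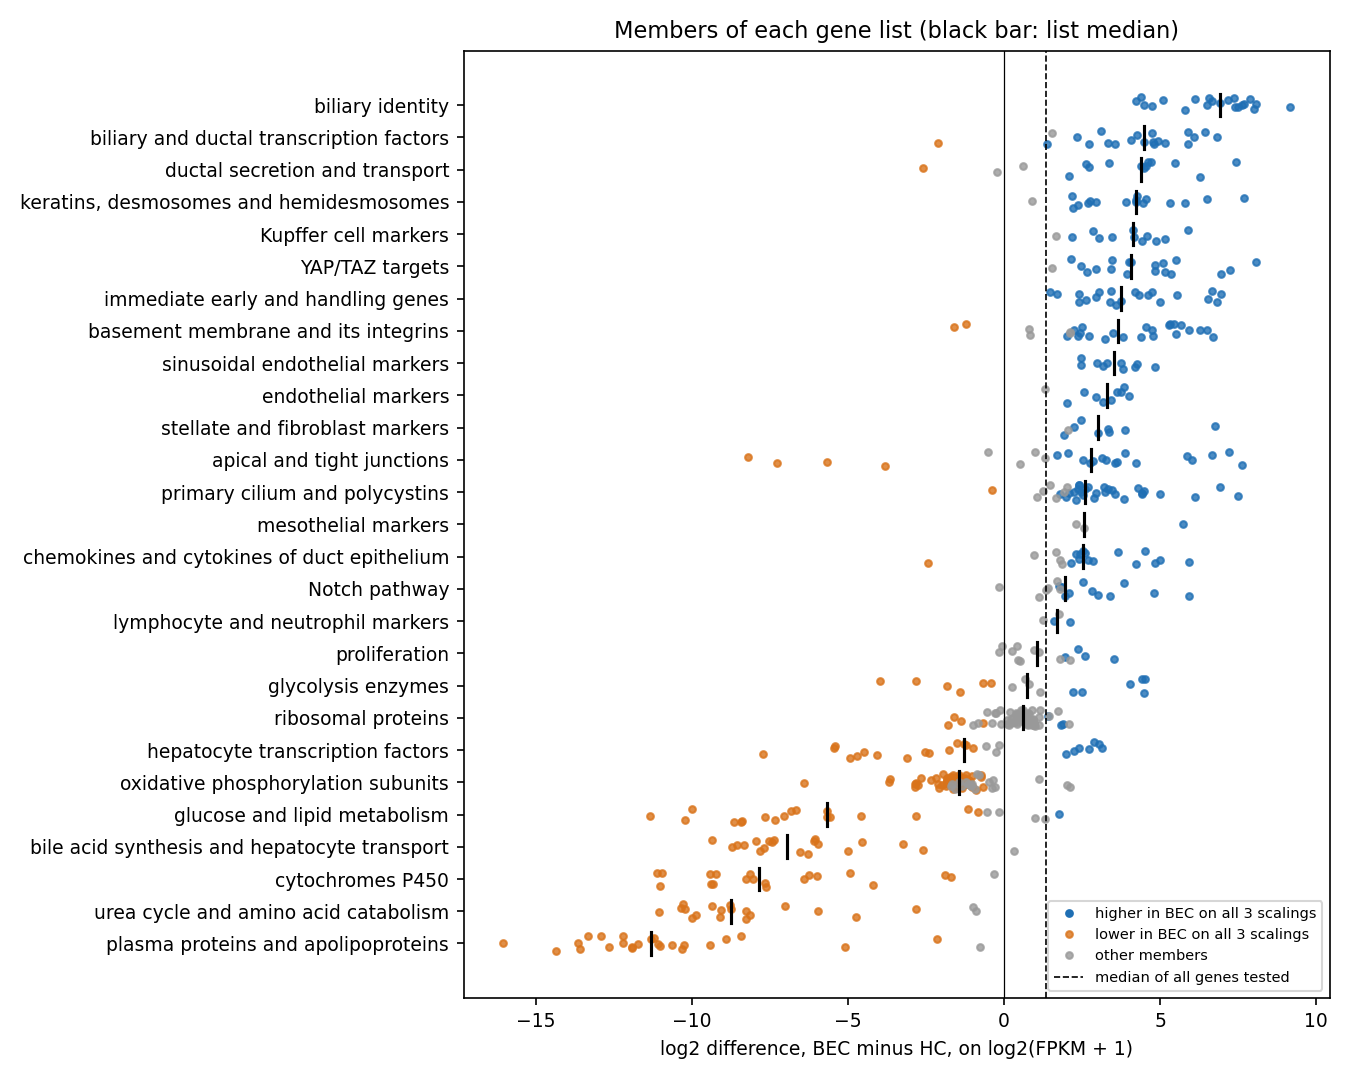
Log2 difference, BEC minus HC, of each tested member of 27 gene lists (points), with the list median (black bar), 0 (thin line) and the median of all genes, 1.35 (dashed line); blue and orange mark members called higher or lower on all 3 scalings. The biliary identity list has all 21 points on the right, the plasma protein list all 25 on the left, and the hepatocyte transcription factors lie on both sides.

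Transcription factors were listed by the cell type they are known for. Of 21 tested ductal factors, 20 were higher in BEC (19 on all 3 scalings) and Tbx3 was lower. Sox4, a partner of Sox9 in duct development, and the epithelial factors Ehf and Grhl2 differed by 6.81, 6.42 and 5.15, and each was under 1 FPKM in every HC library. Glis3, a zinc finger factor, differed by 5.89 and the helix-loop-helix inhibitor Id1 by 6.07. Yap1, the transcriptional effector of the Hippo pathway, differed by 1.37, close to the shift of all genes, at 34.03 to 47.72 FPKM in BEC and 12.87 to 18.88 in HC.

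Of 25 hepatocyte factors, 15 were lower in BEC, 7 were higher and 3 did not pass, with the same calls for all 22 on the 3 scalings. Hnf4a, the nuclear receptor that defines hepatocytes (NM_001312907, chromosome 2, 163332593 to 163398643, plus strand), was at 193, 159.7, 160.9 and 178.4 FPKM in HC and at 11.78, 8.19, 9.97 and 8.21 in BEC (log2 difference -4.06, SE 0.16, limma adjusted p 1.05e-08). It was thus not listed at 0. Cebpa was at 301, 144, 149.5 and 298.5 FPKM in HC and at 35.08, 17.11, 29.58 and 17 in BEC (log2 difference -3.11), with HC libraries 1 and 4 above 2 and 3. Foxa3, a forkhead factor, differed by -1.27. The xenobiotic receptor Nr1i3 and the fasting factor Creb3l3 were listed at 0 in all BEC libraries, beside 42.5 ± 7.71 and 210.8 ± 7.74 FPKM in HC (SD, n = 4 each). The bile acid receptor Nr1h4 was at 8.81, 4.95, 14.16 and 13.13 FPKM in BEC against 50.21 to 72.46 in HC, and its target Nr0b2 was listed at 0 in 2 BEC libraries and at 7.58 and 17.54 in the others, against 83.85 to 134.7 in HC.

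The 7 hepatocyte-list factors that were higher in BEC were Prox1, Nfib, Foxa1, Onecut1, Nr2f2, Nr5a2 and Foxa2. Onecut1 is in the ductal list too and is counted in both. Prox1, a homeobox factor of the hepatoblast (NM_008937, chromosome 1, 191945658 to 191994559, minus strand), was at 157.4, 88.16, 178.8 and 185.1 FPKM in BEC and 9.60, 23.1, 27.05 and 9.82 in HC (log2 difference 3.14, SE 0.38, limma adjusted p 4.1e-05). Every BEC library lay above every HC library. Foxa1 and Foxa2, pioneer factors of endoderm, differed by 2.89 and 1.97, with Foxa2 at 40.69 to 47.94 FPKM in BEC and 10.28 to 11.66 in HC. Nfib differed by 3.05, Onecut1 (Hnf6) by 2.72, Nr2f2 by 2.39 and Nr5a2 by 2.23. Srebf1, Nr2f6 and Esrra did not pass, at -0.27, -0.58 and -0.17 (limma adjusted p 0.174, 0.101 and 0.548). All 3 were lower after upper-quartile scaling, at -1.13, -1.44 and -1.0 (limma adjusted p 0.000197, 0.00199 and 0.00706).

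Hnf4a and Cebpa, both higher in HC, bind DNA at known motifs, and the 250 bases before the annotated start of 4 genes are shown because each holds a match to either of them. Cyp3a11, Alb and Mgst1 were lower in BEC and Krt23 higher. These 4 were picked after the matches were seen. They are RefSeq promoters of build GRCm38.p6, written 5′ to 3′ in the direction of the gene, with the match in capitals. Cyp3a11, a cytochrome P450, lies at chr5:145879855-145880104, minus strand, with an Hnf4a motif from base -109. The C/EBP motif starts at base -94 in Alb (chr5:90460620-90460869, plus strand), at base -83 in Mgst1 (chr6:138140277-138140526, plus strand) and at base -94 in Krt23 (chr11:99493121-99493370, minus strand).
Cyp3a11: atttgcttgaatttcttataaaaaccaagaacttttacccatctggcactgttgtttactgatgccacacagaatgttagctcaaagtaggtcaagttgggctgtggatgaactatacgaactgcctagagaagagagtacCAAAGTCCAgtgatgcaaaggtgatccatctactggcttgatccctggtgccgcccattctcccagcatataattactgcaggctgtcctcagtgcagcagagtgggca
Alb: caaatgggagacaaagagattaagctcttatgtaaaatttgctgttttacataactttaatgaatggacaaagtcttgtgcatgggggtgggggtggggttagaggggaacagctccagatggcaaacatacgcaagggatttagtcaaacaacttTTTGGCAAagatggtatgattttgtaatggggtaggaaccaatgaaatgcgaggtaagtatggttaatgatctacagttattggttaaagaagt
Mgst1: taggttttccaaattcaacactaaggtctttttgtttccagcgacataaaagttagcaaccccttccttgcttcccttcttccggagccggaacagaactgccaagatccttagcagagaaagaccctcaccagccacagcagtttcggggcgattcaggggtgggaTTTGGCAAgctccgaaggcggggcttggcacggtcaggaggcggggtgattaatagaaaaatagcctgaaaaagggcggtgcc
Krt23: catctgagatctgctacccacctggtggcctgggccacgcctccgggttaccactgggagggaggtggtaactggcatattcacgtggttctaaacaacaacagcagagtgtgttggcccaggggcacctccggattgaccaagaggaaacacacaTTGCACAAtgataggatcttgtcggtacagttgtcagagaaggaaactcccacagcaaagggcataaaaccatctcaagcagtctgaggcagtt

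Motifs were searched on both strands of promoters of 300 bases (250 before to 50 after the start; the table's first entry for a symbol). Of the genes lower in BEC by 4 or more, 425 of 558 had a promoter in the table, and of those higher by 4 or more, 458 of 680. Among all tested genes 9697 had one. The Hnf4a motif CAAAGTCCA was in 11 of the 425 (2.59%) and 0 of the 458, against 43 of the 9697 (0.443%) and 129 of all 27025 promoters (0.477%). The C/EBP motif TTGCNNAA was in 18.4% (78) of the HC-side and 8.73% (40) of the BEC-side promoters, against 8.41% of all tested. The short TEAD motif GGAATG was in 18.1% of the HC-side and 14.6% of the BEC-side promoters, against 12.2% of all tested, and the AP-1 motif TGANTCA in 9.65%, 6.77% and 5.04%. The TATA motif TATAAA was in 17.4%, 8.52% and 7.14%. Among all 27025 promoters the shares were 10.8% for C/EBP, 14.6% for TEAD, 7.93% for AP-1 and 14.2% for TATA. Base composition differed between the sets as well: the median promoter held 5 CG dinucleotides on the HC side, 17 on the BEC side and 21 among all tested. A match is a run of letters and not a measured binding site, and its part in the levels was not tested.

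Targets of YAP and TAZ, the coactivators restrained by Hippo signalling, were all higher in BEC (19 of 19, and 18 on all 3 scalings), with a median log2 difference of 4.08. Cyr61, a matricellular protein, was at 2165, 3247, 1416 and 1507 FPKM in BEC and 5.56, 28.34, 28.54 and 10.11 in HC (log2 difference 6.96, SE 0.51, limma adjusted p 1.23e-06). Ctgf and Ankrd1 differed by 7.25 and 8.06. Several of these genes also respond to cell handling, and 21 of 21 tested immediate early and handling genes were higher in BEC on all 3 scalings (median log2 difference 3.75). Fos was at 1699, 1171, 875.9 and 1724 FPKM in BEC and 21.34, 73.38, 66.97 and 23.65 in HC. Atf3, a stress-induced factor, was at 1426, 2525, 686.3 and 950.9 FPKM in BEC and 4.32 to 20.97 in HC, and Jun and Egr1 differed by 4.33 and 4.61. The part of these genes in the YAP target difference was not tested.

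In the Notch pathway 16 of 17 tested genes were higher in BEC, 11 on all 3 scalings (median 1.96, and 0.71 after quantile normalization). The ligand Jag1 was at 100.7, 93.78, 61.58 and 82.6 FPKM in BEC and at most 0.75 in HC (log2 difference 5.92, SE 0.20, limma adjusted p 5.42e-09). The receptor Notch2 was at 60.64 to 104.5 FPKM in BEC and 3.16 to 6.67 in HC, a difference of 3.83, while Notch1 differed by 1.8. Notch1 was at 8.61 to 12.6 FPKM in BEC and at 0.74, 4.39, 4.01 and 0.99 in HC, with HC libraries 2 and 3 above 1 and 4, and it lost the call after quantile normalization (0.26, limma adjusted p 0.437). The target Hes1 was at 783.9, 768.7, 444.8 and 851 FPKM in BEC and 18.99 to 30.68 in HC (log2 difference 4.81). Rfng, a glycosyltransferase that modifies Notch, did not pass at -0.15 (SE 0.17, limma adjusted p 0.442) but was lower after quantile normalization (-1.54, limma adjusted p 6.25e-05).

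Of 19 tested chemokines and cytokines, 18 were higher in BEC and 14 on all 3 scalings. Pdgfc and Pdgfb, ligands of receptors on mesenchymal cells, were at 136.3 ± 5.83 and 23.8 ± 3.58 FPKM in BEC and under 2 FPKM in every HC library (SD, n = 4 each). Tgfb2 differed by 4.82 and the chemokine Cxcl16 by 5.0. Cxcl12 was the exception, at 57.77, 62.45, 63.77 and 50.94 FPKM in HC and 11.61, 7.61, 8.82 and 12.14 in BEC (log2 difference -2.45, SE 0.17, limma adjusted p 7.53e-07).

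On the hepatocyte side, 116 of 133 genes in 6 lists were lower in BEC. When genes at 10 FPKM or more in HC and listed at 0 in any BEC library were left out of the fit, 23 members were lower. That setting removes members from the test, so the 23 are not out of 133. The 12 largest differences by the naming rule were Alb, Apoa2, Apoc1, Apoa1, Trf, Serpina3k, Ahsg, Fabp1, Mup3, Ttr, Serpina1e and Hpx, which encode secreted or carrier proteins. All 12 were listed at 0 in all 4 BEC libraries and were between 4956 (Hpx) and 71530 FPKM (Alb) in HC. Serpina3k, Serpina1e and Mup3 have near-identical copies, so their values are uncertain. Apoa2 was at 28340, 16030, 12580 and 33520 FPKM in HC, with libraries 1 and 4 above 2 and 3. All 25 plasma protein genes were lower in BEC, and 22 were listed at 0 in every BEC library. Fga, the fibrinogen alpha chain, was at 1947, 2897, 3585 and 2111 FPKM in HC and listed at 0 in BEC. The 3 genes not at 0 were C3, Cfb and Ambp.

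C3, the central complement component, was at 703.3, 566, 732.6 and 465.8 FPKM in BEC and 2635, 2436, 2758 and 2898 in HC (log2 difference -2.14, SE 0.20, limma adjusted p 6.62e-06). Cfb, complement factor B, was at 708 to 752.9 FPKM in HC, and at 40.75 FPKM in BEC library 3 against 15.64 to 16.99 in the other 3. Ambp, the precursor of alpha-1-microglobulin and bikunin (NM_007443, chromosome 4, 62804309 to 62815206, minus strand), was at 1502, 2264, 1294 and 1747 FPKM in BEC and 3030, 2519, 2602 and 3348 in HC. The groups did not overlap, but the log2 difference of -0.78 (SE 0.23, limma adjusted p 0.00958) became 1.19 after quantile normalization, and the call was lost without HC libraries 1 and 4 (limma adjusted p 0.0645).

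Metabolic lists were lower in BEC as well. All 20 genes of the urea cycle and amino acid catabolism were lower, 18 on all 3 scalings, and 16 were listed at 0 in every BEC library. Hpd, of tyrosine breakdown, Arg1 and Ass1 were at 2170 ± 625, 1281 ± 317 and 985.3 ± 393 FPKM in HC (SD, n = 4 each) and 0 in BEC. Glul, glutamine synthetase, was at 83.46 to 136.3 FPKM in BEC and 157.6 to 273 in HC, and lost the call after quantile normalization (-0.45, limma adjusted p 0.192). The mitochondrial aspartate-glutamate carrier Slc25a13 was at 8.74 to 12.62 FPKM in BEC and 72.1 to 91.09 in HC.

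Of 20 cytochrome P450 genes 19 were lower, and 16 were listed at 0 in every BEC library. Cyp2e1 was at 1683, 2479, 2559 and 1779 FPKM in HC and Cyp3a11 at 1667, 3119, 3288 and 1485. Cyp4f14 was above 0 in BEC, at 67.14, 94.8, 45.7 and 52.1 FPKM against 187.3 to 232.2 in HC. Por, the reductase that serves P450 enzymes, did not pass, at 54.9 ± 10.1 FPKM in BEC and 69.3 ± 12.5 in HC (SD, n = 4 each; log2 difference -0.33, limma adjusted p 0.132), but was lower after upper-quartile scaling (-1.19, limma adjusted p 0.000337).

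For bile acid synthesis and hepatocyte transport, 19 of 20 were lower and 18 were at 0 in every BEC library. The basolateral uptake carrier Slc10a1 and the canalicular pump Abcb11 were at 374.6 ± 54.1 and 265.9 ± 117 FPKM in HC (SD, n = 4 each). Cyp7a1, the rate-limiting enzyme of bile acid synthesis, was low even in HC, at 3.25, 9.44, 8.98 and 2.07 FPKM. The canalicular pump Abcc2 was at 1.07 FPKM in BEC library 3 and at 0 in the others, against 37.99 to 141.8 in HC. Atp8b1, a phospholipid flippase, did not pass (log2 difference 0.32, SE 0.30, limma adjusted p 0.342).

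Glucose and lipid genes were mixed. Of 23, 18 were lower on all 3 scalings, 3 were higher and 2 did not pass. The gluconeogenic enzymes G6pc and Pck1 were listed at 0 in BEC, beside 353.5 ± 87.3 and 1036 ± 217 FPKM in HC (SD, n = 4 each). Of the 3 higher genes, the glucose transporter Slc2a2 was higher by 0.99, below the shift of all genes, and lost the call after upper-quartile scaling (0.12, limma adjusted p 0.607). Fasn (-0.55, limma adjusted p 0.0789) and Cpt1a (-0.16, limma adjusted p 0.682) did not pass, but both were lower after upper-quartile scaling (-1.41 and -1.02, limma adjusted p 0.000996 and 0.0255).

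Genes lower in BEC but above 0 in all 4 BEC libraries give a difference without listed zeros. Whether hepatocyte signal was subtracted or filtered from the BEC values before deposit is not given in the sources used here, and a subtraction would lower these values too. Among the 10 largest were Msra, Gpd1, Rcl1, Cfb, Stard10, Ebp, Mgst1, Qdpr and Slc25a15, with log2 differences of -5.66 to -4.73. Mgst1, a membrane glutathione transferase, was at 109.9, 120.1, 189.6 and 283 FPKM in BEC and 5372, 4805, 4409 and 4299 in HC (log2 difference -4.84, SE 0.30, limma adjusted p 4e-07). Gpd1, glycerol-3-phosphate dehydrogenase, was at 3.81, 7.79, 5.85 and 2.56 FPKM in BEC and 210.9 to 263.5 in HC. Stard10, a lipid transfer protein, varied widely in BEC, at 5.44, 168.2, 26.03 and 51.41 FPKM, against 693.8 to 1653 in HC. BEC library 2 was the highest for Msra, Gpd1, Stard10, Ebp and Qdpr of these.

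Energy metabolism differed in both directions. Of 74 tested subunits of oxidative phosphorylation, 65 were lower in BEC and 54 on all 3 scalings, with a median log2 difference of -1.45 (-1.17 after quantile normalization) against 1.35 for all genes. Libraries stood apart for this list: its summed level was 26750 and 28410 FPKM in HC libraries 1 and 4 against 15640 and 14180 in 2 and 3, and 10760 in BEC library 2 against 4928 to 6997 in the other 3. The groups did not overlap. Atp5b, of the ATP synthase, was at 525.8, 673.8, 380 and 403.3 FPKM in BEC and 1549, 1011, 949.5 and 1517 in HC (log2 difference -1.34, SE 0.26, limma adjusted p 0.000992), but the difference was -0.06 after quantile normalization. The 3 higher members were Cox6b2, Cox7a1 and Atp5s, none of which kept the call on all 3 scalings. In the glycolysis list 9 of 16 tested genes were higher and 6 lower, and on all 3 scalings 6 were higher and 6 lower. Pkm was at 33.65, 43.67, 22.44 and 25.31 FPKM in BEC and at most 1.24 in HC, while Pklr, the liver form of pyruvate kinase, was at 8.59 to 10.38 in BEC and 60.4 to 93.98 in HC. Of the lactate dehydrogenase chains, Ldhb differed by 4.43 and Ldha by -3.97. The hexokinase Hk1 differed by 4.52 and the aldolases Aldoa and Aldoc by 2.5 and 2.20. The other lower genes were Tpi1, Pgk1, Pgam1 and the lactate carrier Slc16a1, at -1.83, -1.41, -0.66 and -0.43.

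Of 66 tested ribosomal protein genes, 6 lay above the median difference of all genes. By the test 26 were higher and 4 lower, with 3 higher (Rpl15, Rpl22 and Rps4l) and 4 lower (Rps29, Rpl36al, Rps27l and Rpl36a) on all 3 scalings, and a median log2 difference of 0.60 (0.11 after quantile normalization). These genes have many near-identical copies, and low values such as Rps6, at 6.01 ± 1.08 FPKM in BEC and 2.72 ± 0.65 in HC (SD, n = 4 each), are uncertain. Gapdh, likewise a gene with many copies, was under 1 FPKM in all 8 libraries. Of 14 tested proliferation genes 8 were higher in BEC, 4 on all 3 scalings, and the median of 1.04 became -0.47 after quantile normalization. Mcm6, of the replication helicase, was at 40.5 ± 8.89 FPKM in BEC and 2.58 ± 0.34 in HC (SD, n = 4 each), whereas Mki67 was at 0.806 to 3.51 in BEC and 0.18 to 1.21 in HC.

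Most markers of other liver cells were higher in BEC than in HC, as were 71.7% of all genes tested. Counts were 12 of 12 Kupffer cell, 10 of 10 tested sinusoidal endothelial, 10 of 10 tested endothelial and 9 of 9 tested stellate and fibroblast markers. On all 3 scalings 11, 10, 9 and 8 were higher, against 36.1% of all genes. The 3 tested of 8 mesothelial and 4 tested of 14 lymphocyte and neutrophil markers were higher too, but the only tested red cell marker, Alas2, was lower (-6.8). The filter fixed in advance the direction of members under 1 FPKM in every HC library, such as Clec4f and Pecam1. For such members the counts are not a test. Summed over the list, Kupffer markers were at 252.5, 509.2, 600.3 and 207.6 FPKM in the BEC libraries and at 0.64 to 50.04 in HC. The BEC mean was 1.39% of the level in sorted Kupffer cells, and the corresponding values were 2.55% for sinusoidal endothelial, 2.70% for endothelial and 1.20% for stellate markers. Stellate markers were uneven: Rgs5, of pericytes, was at a mean of 182.1 FPKM in BEC and 728.6 in sorted stellate cells, and Dcn, decorin, at 38.5 and 12340. Kupffer markers were uneven too, with Csf1r at a mean of 84.85 FPKM in BEC and 1556 in sorted Kupffer cells, and Lyz2 at 55.25 and 5370. None of the 12 Kupffer markers was at 0 in a BEC library. BEC libraries 2 and 3 stood above 1 and 4 for 11 of 12 Kupffer, 10 of 10 sinusoidal endothelial and 10 of 11 endothelial markers, but for 2 of 14 stellate and fibroblast and 2 of 8 mesothelial markers. Without these 2 libraries 8975 genes were higher and 1776 lower, against 9108 and 1806 over all 4, and the call of the Kupffer marker Lyz2 was lost (limma adjusted p 0.0694). In HC the Kupffer sum was highest in library 4.

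Aqp1, a water channel of the list of duct transport genes (NM_007472, chromosome 6, 55286293 to 55298549, plus strand), moved with the endothelial markers. It was at 42.11, 136.8, 127.5 and 34.37 FPKM in BEC and 0.40 to 3.73 in HC (log2 difference 4.70, SE 0.56, limma adjusted p 3.68e-05). Clec4g, a lectin of sinusoidal endothelium, was at 32.08, 146.8, 119.6 and 37.93 FPKM in the same BEC libraries. Duct markers did not share an order across these libraries. Epcam was lowest in libraries 2 and 3, whereas Krt19 was highest in library 2 and lowest in library 3. The mean log2(FPKM + 1) of the biliary identity list was 7.77, 7.94, 7.52 and 7.64 in BEC libraries 1 to 4. The part of endothelial RNA in the Aqp1 level was not tested.

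**Figure D5:**
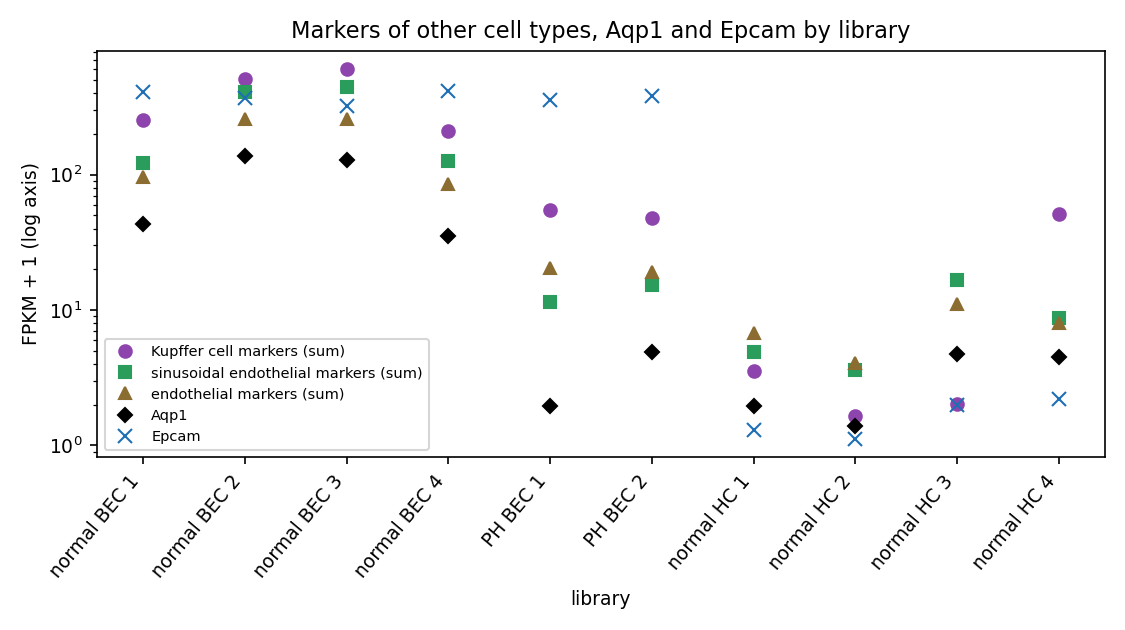
Summed FPKM of 3 marker lists, with Aqp1 and Epcam, in each BEC and HC library of normal liver and both BEC libraries after PH (vertical axis FPKM + 1, log axis). In normal BEC, Aqp1 is between 34.37 and 136.8 FPKM and highest in libraries 2 and 3 as the marker lists are; after PH it is at 0.961 and 3.89 beside Epcam at 352.3 and 380.8 FPKM.

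The other 2 ductal populations of normal liver can be set beside BEC for the same markers, without a test. The cBEC means were 692.4 FPKM for Krt19, 358.4 for Epcam, 14740 for Spp1 and 10.2 for Hnf4a, beside 451.4, 376.9, 17560 and 9.54 in BEC. The NPD means were 746.4 FPKM for Krt19 but 41.1 for Epcam and 1776 for Spp1, and Hnf4a was listed at 0. Prox1 was at 150.8 FPKM in cBEC and 17 in NPD. Alb was listed at 0 in 3 cBEC libraries and both NPD libraries, and was at 778.8 FPKM in cBEC library 4. Ambp was at 1606 FPKM in cBEC and 84.9 in NPD. Mesothelial markers summed to 70.05 to 121.2 FPKM in BEC, 149.2 to 512 in cBEC and 5982 to 6435 in NPD. Within the BEC sum, Gpm6a alone was at 55.22 to 87.92 FPKM and Msln at 4.32 to 12.09.

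Whether the BEC minus HC difference was the same after PH was tested as an interaction over 14 libraries. Of 13779 genes tested, 918 (6.66%) differed: 278 (2.02%) shifted towards BEC and 640 (4.64%) towards HC, by limma at an adjusted p under 0.05. After quantile normalization 208 shifted towards BEC and 206 towards HC. Only 2 BEC libraries exist after PH, and without PH BEC library 2 the count was 431, without PH BEC library 1 it was 506 and without normal HC library 2 it was 604. The 4 markers of the label check did not pass: Krt19 at 0.62 (SE 0.63), Sox9 at 0.76 (SE 0.38), Alb at 0.41 (SE 0.30) and Cps1 at 0.45 (SE 0.27), with limma adjusted p of 0.66, 0.296, 0.508 and 0.383. Alb was listed at 0 in every normal and PH BEC library. Its value is thus only the change within HC with the sign reversed, and says nothing about BEC. Of 21 biliary identity genes 1 passed, Krt23, with 2.0 (SE 0.42, limma adjusted p 0.0144), and it lost the call without either PH BEC library (limma adjusted p 0.0658 and 0.0605). Krt23 was at 364.8 and 340.9 FPKM in PH BEC and at 0.21 to 1.34 in PH HC, where normal HC had 2.96 to 4.43. Of the 16 duct transport genes tested, Cftr shifted towards BEC by 1.08 (SE 0.23, limma adjusted p 0.0131) and Aqp1 away from it by -5.93 (SE 1.04, limma adjusted p 0.00518).

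Among the 8871 tested genes under 10 FPKM in both HC groups, 84 shifted towards BEC and 511 towards HC. Among the 4908 at 10 FPKM or more in either HC group the balance was the other way, with 194 towards BEC and 129 towards HC. The naming rule here took only genes under 10 FPKM in both HC groups. Among these the largest shifts towards HC were Clec4g (-6.92, SE 1.10), C1qa (-6.30, SE 1.11) and Clec4f (-6.30, SE 1.12). Their limma adjusted p were 0.00288, 0.00518 and 0.00557, and all are markers of sinusoidal endothelial or Kupffer cells. The lists moved likewise, with 9 of 10 sinusoidal endothelial, 10 of 11 endothelial and 8 of 12 Kupffer markers shifted towards HC. Their sums in the 2 PH BEC libraries were 10.45 to 14.32, 18.1 to 19.41 and 46.53 to 53.51 FPKM, below every normal BEC library. In PH HC, library 2 stood apart with a Kupffer sum of 184.2 FPKM (6.62 to 22.73 in the other 3) and library 1 with a sinusoidal endothelial sum of 59.06 (6.15 to 13.93 in the other 3). The part of other cells in the 511 genes was not tested. By the same rule the largest shifts towards BEC were Slc13a2 (2.60), Rhbg (2.27) and Cyp2a4 (2.23). These genes were listed at 0 in all normal BEC libraries and lower in PH HC than in normal HC. Rhbg, an ammonium transporter, was at 6.16 to 10.93 FPKM in normal HC and 0.88 to 1.79 in PH HC. Cyp2a4 did not pass when any of 11 of the 14 libraries was left out (limma adjusted p 0.0602 to 0.144).

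The 3 smallest p-values of the interaction were those of acute phase genes. Saa1 and Saa2, serum amyloid A proteins with near-identical copies, were listed at 0 in every BEC library before and after PH, and were at 127.6 to 188.9 and 29.02 to 50.69 FPKM in normal HC and at 15940 to 23000 and 20080 to 30370 in PH HC. Lcn2, an iron-siderophore binding protein, was at 120.8, 174, 114.2 and 104.7 FPKM in normal BEC and 5.49 to 9.62 in normal HC, a difference of 3.95 (SE 0.21, limma adjusted p 1.17e-07). After PH it was at 4324, 5773, 4635 and 5620 FPKM in HC and listed at 0 in both BEC libraries. The shift of -16.25 (SE 0.31, limma adjusted p 1.01e-12) holds both the rise of the HC mean from 7.34 to 5088 FPKM and the listed zeros in BEC.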

How the data were processed

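RNA sequencing of sorted mouse liver cells gave 1 column per sample. The values are FPKM made by the authors, going by the deposited table's name; per the submitters' processing notes, CASAVA 1.8.2, Bowtie 1.0.0 and the build mm9 were used, and how transcripts were counted is not given in the sources used here. The HC values carry 2 decimals. FPKM give no read depth, so the depth is unknown and counting intervals are left out; the number of libraries limits the precision. All 55 sample columns matched a title, with 0 others. Of 36141 rows with 24478 symbols, each symbol was represented by its row of highest mean level across the series. Starts in the table count from 0, and 1 was added.

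Differences were fitted with limma 3.58.1 in R 4.3.3 (trend and robust, two-sided, Benjamini-Hochberg adjusted p under 0.05 over all genes tested) on log2(FPKM + 1), which understates the change of low genes. Genes needed 1 FPKM in 4 of 8 libraries, or in 2 of 14 for the change after PH. On simulated data, 171 of 200 genes changed by 2 (log2) were recovered among 12236 with 6 false calls. For the change after PH it was 126 of 200 among 12882 with 4 false calls. Those data were drawn independently for each library, without a shift of all genes or related libraries. Changes were placed only in genes above a low level. The measured data differ in these respects, so the counts need not hold for them. Figures used Python 3.11.15 and matplotlib 3.10.9.

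The members, the 28 gene lists and all rules were chosen with earlier results of these data known, and no list's count is independent evidence. Named were, without predicted genes and among called genes with no library overlap, the 12 largest differences each way, the 10 largest lower ones above 0 in all BEC libraries, 3 each way among genes under 10 FPKM in HC and the 3 smallest p for the change after PH, and from each list the largest, contrary and textbook members; some genes that met these rules are not reported here. Clu, Apoe, Gstp1 and Gapdh were chosen after their values were seen. Alternatives were a pseudocount of 0.1, no filter, quantile and upper-quartile (0.75) scaling, all 20 groups in a single fit, a block on the replicate number, the mean over rows, removal of listed zeros and leaving out each library. Added after seeing the data were the same call on 3 scalings and leaving out BEC libraries 2 and 3 or HC libraries 1 and 4.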

Additional observations from a re-analysis of the deposited data

Results flagged for a closer look

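In 6 of 106 groups of 4 libraries examined, 1 library stood far from the other 3, where chance gives about 5.3 (1 in 20). HC library 4 was the highest for the mean log2(FPKM + 1) of the Kupffer markers (1.55, against 0.07 to 0.26 in the others), for that of the lymphocyte and neutrophil markers (0.31) and for Cldn7 (0.70 FPKM). BEC library 2 was the highest for the red cell marker score (0.64) and for Ebp, a sterol isomerase (28.44 FPKM). BEC library 3 was the highest for Cfb (40.75 FPKM). No cause was tested.

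The BEC minus HC difference after PH differed from that in normal liver in 918 genes by the interaction test in limma. The named genes were Clec4g (-6.92), C1qa (-6.30), Clec4f (-6.30), Slc13a2 (2.60), Rhbg (2.27), Cyp2a4 (2.23), Lcn2 (-16.25), Saa2 (-9.30) and Saa1 (-6.89).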

How the results depend on the processing

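The 9108 genes higher in BEC became 4976 after quantile normalization and 4592 on all 3 scalings, and the 1806 lower became 3824 after quantile and 3029 after upper-quartile scaling. Leaving out 1 library gave 8880 to 9364 higher and 1719 to 1891 lower. List counts were then 188 to 193 BEC-list members higher (189 in all) and 116 to 119 HC-list members lower (116 in all). Without genes listed at 0, which leaves fewer members tested, 23 HC-list members were lower. The 918 genes of the change after PH became 414 after quantile normalization, 581 with all 20 groups, 482 with the replicate block and 431 to 973 without 1 library (604 without normal HC library 2, 506 and 431 without PH BEC library 1 or 2). With the replicate block 8980 genes were higher and 1752 lower. Deviations of same-numbered libraries correlated at 0.0432, -0.5627, 0.5005 and -0.3409, without a common sign. BEC library 2 correlated with HC libraries 1 and 4 at 0.552 and 0.5495, and with 2 and 3 at -0.5627 and -0.5689. For BEC library 3 the values were -0.5084 and -0.4308, and 0.4543 and 0.5005. With 4 libraries in each group these values cannot settle whether replicates were paired. Deviations of HC libraries 1 and 4 lay apart from those of 2 and 3, whose log2 levels correlated at 0.9937.

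Directions that turned were, after quantile normalization, Atp8b1 -1.08, Ambp 1.19, Atp5s -0.42, Mki67 -0.42 and Rps6 -0.67, and, after upper-quartile scaling, Abcc3 -0.25 and Atp8b1 -0.46. Without 1 library, Slc10a2 ranged from -0.53 to 0.05 and Cpt1a from -0.37 to 0.18, and Cpt1a was 0.26 without BEC libraries 2 and 3. Rfng was 0.01 without BEC libraries 2 and 3, and without HC libraries 1 and 4 Rfng was 0.06, Atp8b1 -0.15 and Esrra 0.27. The cause was not tested. Of 3543 values of named genes, 3470 kept direction and side of the threshold, 37 lost the call, 21 gained it and 15 turned; for the change after PH, 309 of 326 kept both and 17 lost the call.

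Listed zeros limit the folds of the genes that have them, and the unknown read depth limits the low values.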

Other observations

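Some secreted proteins known from hepatocytes were abundant in BEC. Clu, the extracellular chaperone clusterin, was at 17820, 20930, 12290 and 16980 FPKM in BEC and 994.3, 1081, 1134 and 1127 in HC, and its BEC level was near that of Spp1 (log2 difference 3.95, SE 0.22, limma adjusted p 1.32e-07). It was at 16190 FPKM in cBEC and 3086 in NPD. Apoe, a lipoprotein ligand, was at 3549, 5483, 3020 and 3862 FPKM in BEC and 16470 to 23570 in HC (log2 difference -2.36, SE 0.24, limma adjusted p 1.23e-05). Both were above 0 in every BEC library, while 62 of 82 genes at a mean of 1000 FPKM or more in HC were listed at 0 in all BEC libraries. Gstp1, a glutathione transferase with near-identical copies, was at 847.4 to 2617 FPKM in HC and listed at 0 in all 4 BEC libraries.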
